A study of Mus musculus with 12 samples.

Results

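The galectin genes Lgals1, Lgals3, Lgals8 and Lgals9 were followed in splenic resting B cells before and after activation. They were found by matching gene symbols to Ensembl identifiers and are 4 of the 37991 genes in the count table. RNA was sequenced from 12 samples in 4 groups of 3 replicates. The control group, Cre-only, carried the CD23-iCre transgene alone, and the Runx1 c-k/o group carried the same transgene together with a Runx1 allele from which Cre removes exon 4, so that both genotypes express Cre. The mice were labelled as 8 weeks old. Cells of each genotype were taken either at rest (0 h) or after 3 h with anti-IgM, which engages the BCR, and IL-4. Cre from this transgene acts from the transitional stage of B-cell development onward, so that earlier stages keep Runx1, and the cells were purified by depletion of other cells rather than by positive selection.

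Galectins are small proteins that bind beta-galactosides on glycoproteins and glycolipids, with the strongest binding to chains of N-acetyllactosamine (LacNAc). They are made in the cytosol and leave the cell without a signal peptide. Outside the cell they crosslink surface glycoproteins into lattices, which in B cells include the BCR, CD45 and CD22. Inside the cell, galectin-3, galectin-8 and galectin-9 recognise glycans that become exposed when endosomes or lysosomes are damaged. Galectin-1 is a prototype galectin with a single carbohydrate-binding domain that acts as a dimer, galectin-3 is a chimera with a self-associating N-terminal tail, and galectin-8 and galectin-9 are tandem-repeat galectins with a pair of different carbohydrate-binding domains. Sialic acid added to galactose in alpha-2,6 linkage blocks the binding of several galectins.

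On the mm9 genome, Lgals1 (ENSMUSG00000068220) lies on the plus strand of chromosome 15 from 78757155 to 78760895, and Lgals3 (ENSMUSG00000050335) on the plus strand of chromosome 14 from 47987426 to 48005835. Lgals8 (ENSMUSG00000057554) lies on the minus strand of chromosome 13 from 12531682 to 12557211, and Lgals9 (ENSMUSG00000001123) on the minus strand of chromosome 11 from 78776476 to 78798448. All 4 are annotated as protein coding, and 0 other annotated genes overlap them. Their exons cover 800, 1858, 3688 and 2137 bases in the same order.

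The RefSeq promoter windows held Lgals3, Lgals8, Lgals9 and Lgals3bp, and 4 of the 5 genes looked up (Lgals1 was the fifth) matched. The 250 bases before the start were searched on both strands for a RUNX core (TGTGGT), a pair of interferon response half-sites (GAAA, any 2 bases, GAAA), a STAT6 site (TTC, any 4 bases, GAA, which reads the same on both strands) and a kappa B site (GGGA, any base, TTTCC). Stretches of the Lgals9 and Lgals3 promoters are shown because these genes had the largest changes among the 4 galectins on activation, in opposite directions. Capitals mark a match to one of these motifs. Both are from RefSeq on GRCm38.p6, a later build than that of the counts, at chr11:78984955-78985174 on the minus strand for Lgals9 and chr14:47373610-47373809 on the plus strand for Lgals3.
Lgals9: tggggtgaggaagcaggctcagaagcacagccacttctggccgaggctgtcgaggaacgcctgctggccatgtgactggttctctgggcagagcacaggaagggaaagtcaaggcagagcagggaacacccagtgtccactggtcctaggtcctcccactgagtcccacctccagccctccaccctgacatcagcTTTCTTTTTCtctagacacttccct
Lgals3: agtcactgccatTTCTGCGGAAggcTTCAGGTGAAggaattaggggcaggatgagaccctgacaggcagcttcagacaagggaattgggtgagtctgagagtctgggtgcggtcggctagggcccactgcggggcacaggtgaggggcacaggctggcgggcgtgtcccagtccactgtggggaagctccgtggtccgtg

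The Lgals9 window held 1 match to the interferon response pair, on the opposite strand, and 2.98% of all 32851 windows of the same length held such a match. The Lgals3 window held 2 matches to the STAT6 site, which 5.85% of windows contained. The RUNX core as spelled TGTGGT was found once in the Lgals8 window and in 14.05% of all windows, and the other 3 windows held 0. Variant spellings were not searched, such as the tgcggt in the printed Lgals3 stretch, so that these values cover TGTGGT only. The kappa B site, in 0.36% of windows, and any motif in the Lgals3bp window had 0 matches. A match describes the letters only and is not a binding site.

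Total counts ran from 14442251 to 23641552 per sample, and 13538 genes passed the filter on low counts, including all 4 galectins. Levels are given as normalized CPM (read counts scaled to a common library size by the TMM method), on which scale 3 counts correspond to between 0.129 and 0.199. These floors cover counting error only. Markers of B cells were high in every sample, with 10 of 10 detected and a summed level of 10340 to 11390 at rest and 5192 to 5988 at 3 h. Of 14 macrophage and monocyte markers, 0 were at 0 counts in any sample, but some, such as Fcgr1 (named after its values were seen), lay under the floor of 3 counts in 3-h samples. Their summed level at rest was 661.6 to 862.7 in the Cre-only group and 581.9 to 1259 in the Runx1 c-k/o group, and 38.08 to 51.87 and 47.82 to 134.3 at 3 h, with replicate 2 the highest of the Runx1 c-k/o group at both times. Erythroid markers (6 genes) summed to between 14.89 and 475.9 and T-cell, NK-cell and neutrophil marker sums reached at most 88.51, 15.9 and 11.03, and those of dendritic cells and platelets at most 53.82 and 19.07. Plasma cell markers, some of which B cells share, summed to 1541 to 2390. In bulk samples, fewer cells of a type and less RNA per cell cannot be told apart.

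Runx1 itself was not lower in the Runx1 c-k/o samples when its whole gene was counted. At 3 h it was at 38.54, 37.04 and 34.91 normalized CPM in the Cre-only samples against 47.31, 70.61 and 74.5 with the deletion. The difference at 3 h was 1.74-fold (log2 0.80, SE 0.138, edgeR adjusted p = 0.00769). The count covers all exons, and another annotated gene overlaps Runx1, so that it does not check the loss of exon 4.

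The levels of the 4 galectins were first compared with each other per length of exon (RPKM). In resting Cre-only cells the order was Lgals9 at 59.5 ± 5.11 RPKM (mean ± SD, n = 3), Lgals8 at 30.2 ± 1.1, Lgals1 at 13.6 ± 1.28 and Lgals3 at 7.16 ± 0.86, and no neighbours in this order overlapped. Resting Runx1 c-k/o cells had the same order, at 69.8 ± 2.09, 28.7 ± 0.737, 13.7 ± 1.75 and 8.29 ± 4.42, where the samples of Lgals1 and Lgals3 overlapped. After 3 h in Cre-only cells Lgals8 was at 26.6 ± 1.29 RPKM, Lgals3 at 25.1 ± 5.03, Lgals9 at 14.3 ± 1.25 and Lgals1 at 8.96 ± 1.31, and only the samples of Lgals8 and Lgals3 overlapped. Lgals3 was at 28.7 ± 3.22 RPKM in 3-h Runx1 c-k/o cells, Lgals9 at 23.9 ± 2.58, Lgals8 at 23.4 ± 2.29 and Lgals1 at 7.07 ± 1.36, and the first 3 overlapped with their neighbours. Lgals9 thus ranked first at rest in both genotypes, and at 3 h below Lgals8 and Lgals3 in Cre-only cells.

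**Figure D1:**
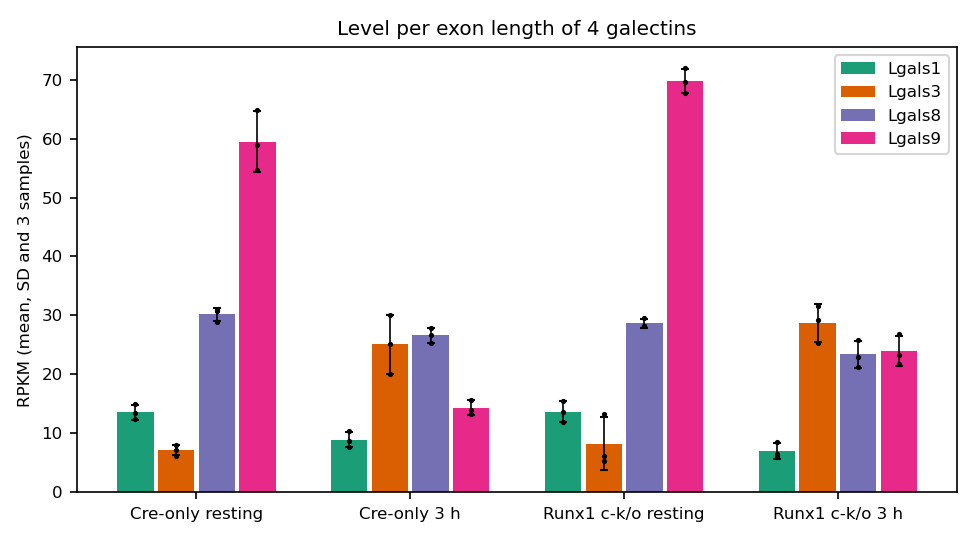
Levels of the 4 galectins in RPKM (y axis) in each group (x axis), with bars for the mean, error bars for the SD and dots for the 3 samples. Lgals9 has the tallest bar in both resting groups, at 59.5 and 69.8 RPKM, and Lgals3 rises from 7.16 to 25.1 RPKM in Cre-only cells.

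The second question was how each galectin changed on activation. Lgals9 fell and Lgals3 rose in both genotypes, Lgals1 fell in both, and Lgals8 moved little. In Cre-only cells 1 of the 4 genes was called higher and 2 were called lower, against 38.6% and 36.4% of all tested genes, so that changed genes were common in the whole table. In Runx1 c-k/o cells 1 was called higher and 3 lower, against 37.7% and 36.6%. Fold changes are relative to each library's size as scaled by TMM, and the ERCC spike-in counts were not used here.

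**Figure D2:**
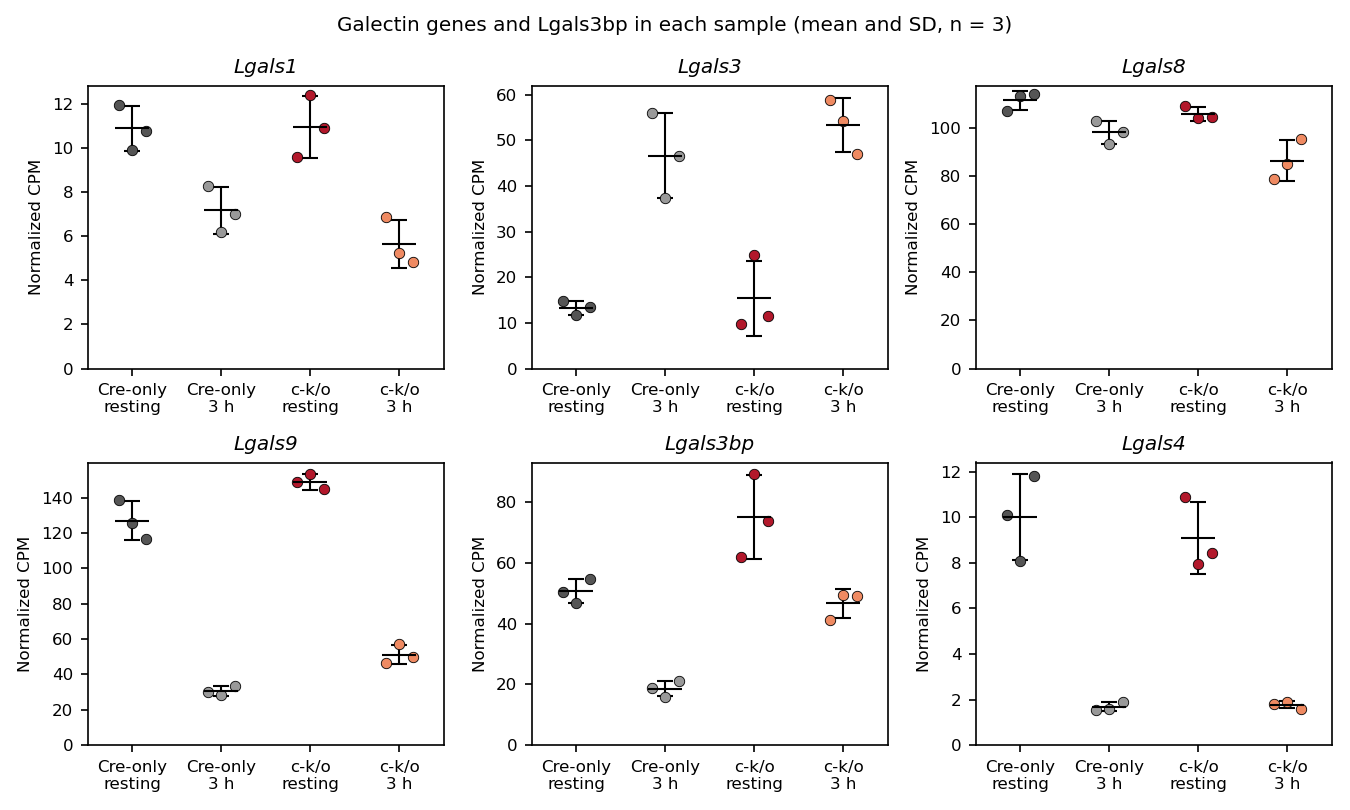
Normalized CPM (y axis) of the 4 galectins, Lgals3bp and Lgals4 in the 4 groups (x axis), with each of the 3 samples as a point and the mean and SD as lines. The resting points of Lgals9 lie between 116.9 and 153.7 and its 3-h points between 28.48 and 57.29, while Lgals3 moves the other way.

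Lgals9, which encodes the galectin that binds TIM-3 and CD45 among others, was at 138.6, 125.7 and 116.9 normalized CPM in the resting Cre-only samples and at 29.82, 28.48 and 33.63 at 3 h. The Runx1 c-k/o samples were at 148.7, 153.7 and 144.8 at rest and at 46.6, 57.29 and 49.65 at 3 h. All 3-h samples lay below all resting samples of their genotype. Lgals9 fell 4.15-fold in Cre-only cells (log2 -2.05, SE 0.104, edgeR adjusted p = 1.66e-08) and 2.91-fold in Runx1 c-k/o cells (log2 -1.54, SE 0.102, adjusted p = 8.76e-08).

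Lgals3 was at 14.79, 11.62 and 13.51 normalized CPM at rest and at 55.97, 37.3 and 46.63 at 3 h in Cre-only cells. In Runx1 c-k/o cells it was at 9.781, 24.82 and 11.61 at rest and at 58.77, 54.27 and 46.94 at 3 h, so that the second resting replicate stood well above the other two. It was also the resting library with the highest summed macrophage and monocyte level, 1259 against 581.9 and 948.1. Some genes that change on activation, named after their values were seen, also stood apart in that library. Cd44, which rises, was at 232 against 129 and 147, and Itga4, which falls, was at 247 against 451 and 475. Tfrc, which also rises, did not stand apart, at 220 against 256 and 223. Why Lgals3 was high there was not tested. Lgals3 rose 3.51-fold in Cre-only cells (log2 1.81, SE 0.284, adjusted p = 8.95e-05) and 3.47-fold in Runx1 c-k/o cells (log2 1.79, SE 0.284, adjusted p = 9.92e-05). Without the second resting Runx1 c-k/o replicate the log2 change in that genotype was 2.33 (adjusted p = 3.7e-07).

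Lgals1, the smallest of the 4 genes, was at 11.95, 9.908 and 10.78 normalized CPM at rest and at 8.286, 6.206 and 7.007 at 3 h in Cre-only cells, from 95 to 248 counts per sample. In Runx1 c-k/o cells it was at 9.605, 12.41 and 10.88 at rest and at 6.888, 5.25 and 4.829 at 3 h. The groups did not overlap in either genotype. Lgals1 fell 1.51-fold (log2 -0.60, SE 0.163, adjusted p = 0.00523) and 1.94-fold (log2 -0.96, SE 0.168, adjusted p = 0.000234) in the Cre-only and the Runx1 c-k/o group, respectively.

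Lgals8 varied least. It was at 106.8, 113.3 and 114.2 normalized CPM at rest and at 102.8, 93.29 and 98.42 at 3 h in Cre-only cells, a log2 change of -0.18 (SE 0.0837) that missed the threshold (adjusted p = 0.065) although the samples did not overlap. In Runx1 c-k/o cells it fell from 108.9, 104 and 104.3 to 78.6, 84.98 and 95.34, a 1.22-fold change (log2 -0.29, SE 0.0841, adjusted p = 0.00715). The call in Cre-only cells depended on the scaling, and with 1 factor of unwanted variation, in edgeR or in DESeq2, the Runx1 c-k/o call was lost.

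All 14 macrophage and monocyte markers fell on activation in both genotypes, with a median log2 change of -4.35 without and -3.63 with the Runx1 deletion. Macrophages also express Lgals1, Lgals3 and Lgals9, and the part of these cells in the falls of Lgals1 and Lgals9 was not tested. Lgals3 rose while these markers fell.

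**Figure D3:**
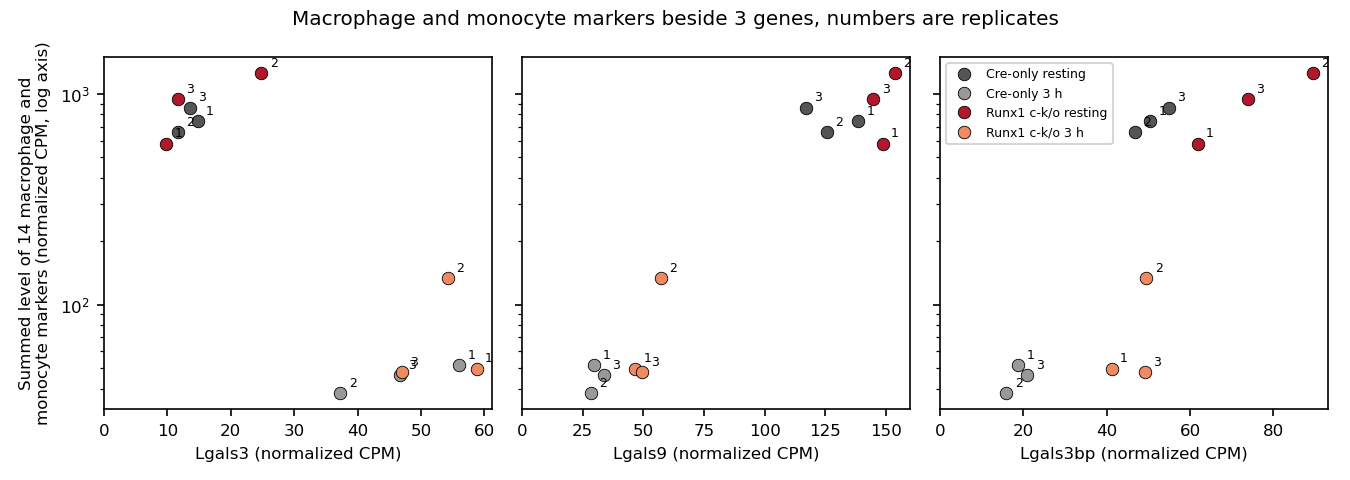
Summed normalized CPM of 14 macrophage and monocyte markers (y axis, log scale) against the normalized CPM of Lgals3, Lgals9 and Lgals3bp (x axes), 1 point per sample with its replicate number. Resting samples lie at or above 581.9 on the y axis and 3-h samples at or below 134.3, and replicate 2 of the Runx1 c-k/o group is highest at both times.

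The genotypes were then compared at rest. With edgeR, 0 of the 4 galectins were called higher and 0 lower, against 0.731% and 0.761% of all tested genes. DESeq2 also called 0, and 1 of the 4 had an unadjusted p under 0.05 in edgeR. That gene was Lgals9, whose 3 Runx1 c-k/o samples all lay above the 3 Cre-only samples given above (1.17-fold, log2 0.23, SE 0.0988, adjusted p = 0.414). Log2 differences were 0.01 for Lgals1 (SE 0.16, adjusted p = 0.989), 0.21 for Lgals3 (SE 0.289, adjusted p = 0.797) and -0.08 for Lgals8 (SE 0.0837, adjusted p = 0.748), and in each the samples of the genotypes overlapped. The Lgals3 difference rested on 1 library and was -0.32 without the second Runx1 c-k/o replicate.

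At 3 h, 1 of the 4 galectins was called higher in Runx1 c-k/o cells and 0 lower, against 1.47% and 1.3% of all tested genes. Lgals9 was 1.67-fold higher (log2 0.74, SE 0.102, edgeR adjusted p = 0.0018), with all 3 Runx1 c-k/o samples above all 3 Cre-only samples. Replicate 2 of the Runx1 c-k/o group had the highest Lgals9 level and the highest macrophage and monocyte level, 134.3 against 49.69 and 47.82. Without that replicate the log2 difference was 0.65 (adjusted p = 0.00755). The other two Runx1 c-k/o samples had summed marker levels within the Cre-only range of 38.08 to 51.87. Gene by gene, the 14 markers had a median log2 difference between genotypes of 1.04 at 3 h, beside 0.01 for all tested genes. For most of them replicate 2 was the highest of the Runx1 c-k/o samples. Csf1r, for example, was at 5.99, 26.5 and 8.36 normalized CPM against 8.16, 5.16 and 6.94 in the Cre-only samples. Of the 14, edgeR called 0 and 3 had an unadjusted p under 0.05, and DESeq2 called 1 higher. Cd68, C1qa and C1qb, named after their values were seen, had all 3 Runx1 c-k/o samples above all 3 Cre-only samples. Cd68 was at 14.7, 15.2 and 12 against 11.9, 10.3 and 10.2 normalized CPM. The other markers overlapped between genotypes, such as C1qc at 2.57, 13.5 and 2.24 against 2.89, 1.89 and 2.36. Itgam went the other way (log2 -0.96, SE 0.534). How common such a separation was among all tested genes was not counted. The part of macrophages in the Lgals9 difference was not tested.

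Lgals1, Lgals3 and Lgals8 were not called at 3 h. Lgals1 was at a log2 difference of -0.35 (SE 0.171, adjusted p = 0.332), Lgals3 at 0.19 (SE 0.269, adjusted p = 0.726) and Lgals8 at -0.19 (SE 0.084, adjusted p = 0.3). The samples of the genotypes overlapped in all 3 genes.

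Whether activation changed a galectin differently in the 2 genotypes was tested as an interaction. With edgeR 0 of the 4 were called, against 0.0665% of all genes for a higher and 0.0148% for a lower change in Runx1 c-k/o cells, and 1 had an unadjusted p under 0.05. The smaller fall of Lgals9 in Runx1 c-k/o cells gave a log2 difference of 0.51 (SE 0.142, adjusted p = 0.457) in edgeR's quasi-likelihood test. DESeq2's Wald test called it (log2 0.55, adjusted p = 0.0375), and over all alternatives the adjusted p ran from 0.00286 to 1, so that this call depended on the test. In data simulated without activation changes and tested for the genotype difference at 3 h, DESeq2 called unchanged genes more often than its threshold allows. The simulated counts were drawn with means and spreads that edgeR had estimated, which can favour edgeR. The interaction itself was not tested there, so that whether its DESeq2 adjusted p is also too small cannot be told. Log2 differences for Lgals1, Lgals3 and Lgals8 were -0.36 (SE 0.234), -0.02 (SE 0.393) and -0.11 (SE 0.119), each with an adjusted p of 0.999.

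**Figure D4:**
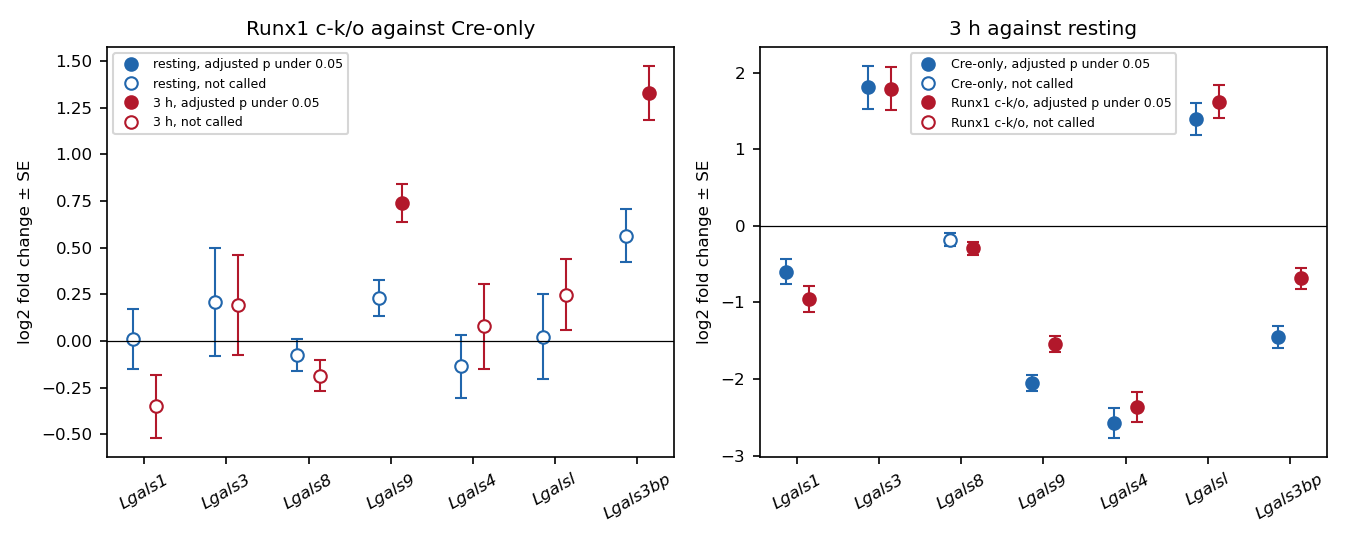
Log2 fold changes with SE (y axis) for 6 galectin family genes and Lgals3bp (x axis), between genotypes on the left and on activation on the right. Filled points have an edgeR adjusted p under 0.05. On the left Lgals9 and Lgals3bp are filled at 3 h, and on the right Lgals8 in Cre-only cells is the one open point.

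Of 7 other galectin family genes, 6 were in the table. Lgals4, a tandem-repeat galectin best known from intestine, and Lgalsl, a galectin-like gene, passed the filter. In the Cre-only group Lgals4 was at 10.12, 8.085 and 11.84 normalized CPM at rest and at 1.554, 1.568 and 1.911 at 3 h, a 5.97-fold fall (log2 -2.58, SE 0.196, adjusted p = 1.85e-07). In Runx1 c-k/o cells it was at 10.89, 7.95 and 8.428 and then at 1.802, 1.903 and 1.59, a 5.15-fold fall (log2 -2.37, SE 0.198, adjusted p = 4.84e-07). The groups were far apart in both genotypes.

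Lgalsl moved the other way. It was at 2.602, 2.164 and 1.425 normalized CPM at rest and at 5.913, 5.879 and 4.714 at 3 h in Cre-only cells, a 2.64-fold rise (log2 1.40, SE 0.209, adjusted p = 5.91e-05). Runx1 c-k/o cells went from 2.284, 1.874 and 2.19 to 6.437, 5.709 and 7.479, a 3.08-fold rise (log2 1.63, SE 0.212, adjusted p = 1.89e-05). Neither gene was called between genotypes. Lgals2, Lgals7, Lgals12 and Grifin had at most 2 counts in any sample, which is under the floor, and another annotated gene overlaps Lgals2 on the opposite strand.

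Lgals3bp (galectin-3-binding protein), a secreted glycoprotein ligand of galectins, was the partner with the smallest adjusted p between genotypes at 3 h. Resting Cre-only samples had 50.5, 46.75 and 54.85 normalized CPM and the Runx1 c-k/o ones 61.85, 89.39 and 73.79, without overlap (1.48-fold, log2 0.57 (SE 0.141), adjusted p = 0.0899, and 0.00191 to 0.364 over the alternatives). At 3 h it was at 18.77, 15.94 and 20.96 against 41.2, 49.54 and 49.17, so that it was 2.51-fold higher in Runx1 c-k/o cells (log2 1.33, SE 0.147, adjusted p = 0.000414). The fall on activation was 2.73-fold without the deletion (adjusted p = 2.12e-06) and 1.61-fold with it (adjusted p = 0.000819). Its interaction was not called by edgeR (log2 0.76, SE 0.203, adjusted p = 0.363) but was called by DESeq2's Wald test (adjusted p = 0.0299) and by DESeq2 with 1 RUVs factor (adjusted p = 0.00307). In replicate 2, where macrophage markers were highest, Lgals3bp was also the highest of the Runx1 c-k/o samples at rest and at 3 h. Without that replicate its 3-h difference was 1.28 on the log2 scale (adjusted p = 0.00226), and 0.42 (adjusted p = 0.259) at rest without the resting one.

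The list of galectin binding partners, which includes Lgals3bp, held 22 genes, all tested. On activation 8 were called higher and 12 lower in Cre-only cells (38.6% and 36.4% of all tested genes), and 8 and 10 with the deletion (37.7% and 36.6%), with median log2 changes of -0.76 and -0.32 beside 0.03 and 0.00 for all tested genes. Cd22, an inhibitory BCR co-receptor, fell 5.88-fold and Cd44, the hyaluronan receptor, rose 6.51-fold in Cre-only cells. Tfrc, the transferrin receptor, rose 3-fold and Ctla4, a coinhibitory receptor, fell 5.69-fold, with adjusted p of at most 7.5e-08 for all 4.

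Between genotypes 0 of the 22 partners were called by edgeR at rest (6 had an unadjusted p under 0.05, and DESeq2 called 1 higher and 1 lower), with a median log2 difference of 0.10 beside 0.03. Of all tested genes, edgeR called 0.731% higher and 0.761% lower at rest. Ctla4 had a resting log2 difference of -0.62 (SE 0.149, adjusted p = 0.0748) and Cd44 of 0.54 (SE 0.171, adjusted p = 0.213). Resting Cd44 was at 116, 115 and 119 normalized CPM in the Cre-only samples against 129, 232 and 147, with replicate 2 well above the rest. At 3 h edgeR called 3 higher and 0 lower, against 1.47% and 1.3% of all tested genes, and DESeq2 called 3 higher and 1 lower. The edgeR calls were Lgals3bp, Slc2a1 and Spn. Cd22 had all 3 Runx1 c-k/o samples below the Cre-only ones and missed the threshold (log2 -0.56, SE 0.155, adjusted p = 0.086). Slc2a1, the glucose transporter GLUT1, was at 41.3, 39.8 and 41.5 normalized CPM in the Cre-only samples against 68.8, 66.5 and 60.9 (1.6-fold, adjusted p = 0.00159), and its exons overlap an antisense gene. Spn (CD43), a surface antigen used to deplete cells during the purification, was at 10, 6.99 and 7.26 against 13.8, 13.5 and 13.4 (1.66-fold, adjusted p = 0.0201). Havcr2, which encodes the galectin-9 receptor TIM-3 and was singled out after its values were seen, was at group means of 1.24 to 1.71 normalized CPM and was not called in any comparison.

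Galectin ligands depend on enzymes that branch N-glycans and extend them with LacNAc, of which 22 of 24 listed genes were tested. In Cre-only cells 9 rose and 11 fell, beside 38.6% and 36.4% of all tested genes, and in Runx1 c-k/o cells 8 rose and 13 fell, beside 37.7% and 36.6%, with median log2 changes of -0.54 and -0.73. B4galt1, a galactosyltransferase that builds LacNAc, rose 3.56-fold in Cre-only cells (118 ± 1.81 to 420 ± 7.29 normalized CPM, adjusted p = 2.52e-08), and B4galt5, of the same family, rose 3.37-fold (adjusted p = 7.37e-08). B3gnt8, an N-acetylglucosaminyltransferase that extends such chains, fell 27.7-fold from 16.3 ± 2.1 to 0.552 ± 0.28 (adjusted p = 4.31e-08), and Man2a1, which trims mannose before branching, fell 4.65-fold (adjusted p = 1.41e-07). Members of one enzyme family did not move together. B4galt4 and B4galt6, named after their values were seen, fell (log2 -1.29 and -3.19, adjusted p = 0.00893 and 0.000323), and B4galt3 was at a log2 change of -0.10 (adjusted p = 0.336). B4galt4 and B4galt6 were low, at 2.07 and 1.22 normalized CPM in resting Cre-only cells. At 3 h B4galt4 was at 0.826, and B4galt6 at 0.259, 0 and 0.0637, near or under the floor of 3 counts.

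**Figure D5:**
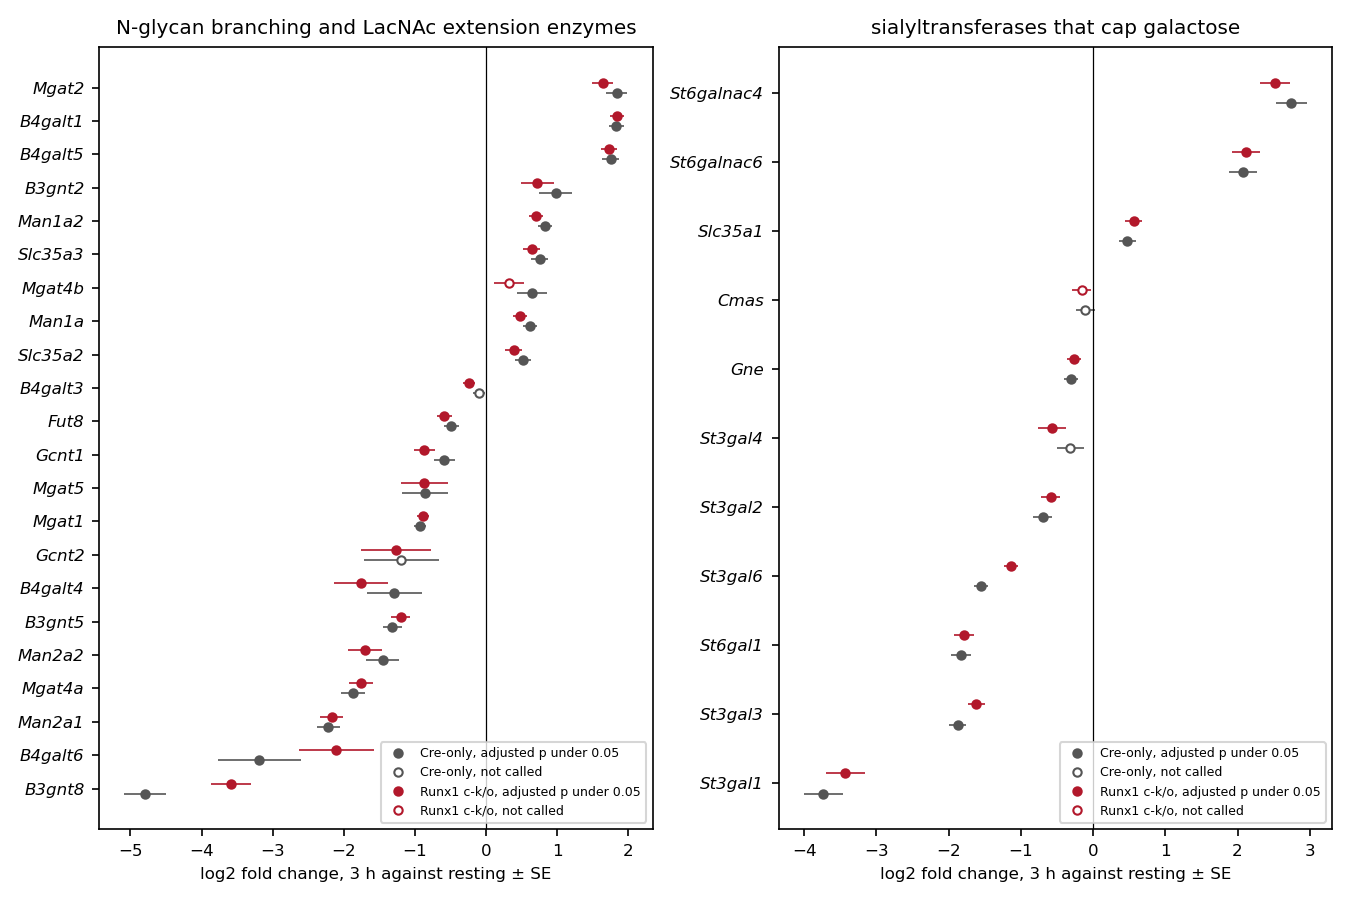
Log2 fold change from rest to 3 h with SE (x axis) of the tested N-glycan branching and LacNAc genes (left) and sialyltransferase genes (right), in Cre-only (grey) and Runx1 c-k/o cells (red), with filled points for an edgeR adjusted p under 0.05. The genes spread over both sides of 0, from -4.79 for B3gnt8 to 2.75 in Cre-only cells.

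Between genotypes 0 of these 22 genes were called at rest by either tool (1 had an unadjusted p under 0.05 in edgeR). Of all tested genes, edgeR called 0.731% higher and 0.761% lower at rest. At 3 h 1 was lower and 0 higher, against 1.3% and 1.47% of all tested genes. Gcnt1, the enzyme that branches core 2 O-glycans that galectin-1 can bind, was at 25, 31.2 and 29.1 normalized CPM in the Cre-only samples against 14.4, 18.6 and 21.1 (1.57-fold lower, log2 -0.66, SE 0.151, adjusted p = 0.0391).

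Sialyltransferases, only some of which cap galactose, and related genes formed a list of 12, of which 11 were tested. On activation 3 rose and 6 fell in Cre-only cells (all tested genes 38.6% and 36.4%) and 3 rose and 7 fell in Runx1 c-k/o cells (37.7% and 36.6%), with median log2 changes of -0.32 and -0.57. St3gal1, which adds alpha-2,3 sialic acid, fell 13.3-fold in Cre-only cells (195 ± 8.31 to 14.6 ± 1.59 normalized CPM, adjusted p = 1.4e-07), and St3gal3 and St3gal6 fell 3.66-fold and 2.92-fold. St6galnac4 and St6galnac6, named after their values were seen, went up in Cre-only cells. Their levels went from 48.3 ± 4.25 to 324 ± 0.864 and from 4.57 ± 1.29 to 19.4 ± 1.07 normalized CPM. Between genotypes edgeR called 1 of the 11 lower at rest and 1 at 3 h, against 0.761% and 1.3% of all tested genes. It called 0 higher, against 0.731% and 1.47%. DESeq2 called 1 lower at rest, and 1 higher and 1 lower at 3 h, where 3 had an unadjusted p under 0.05 in edgeR. St3gal6 went the other way at 3 h, at 15.5, 16.9 and 17.5 normalized CPM in the Cre-only samples against 22.9, 21.8 and 20.6.

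The gene that edgeR called lower was St6gal1, the enzyme that adds alpha-2,6 sialic acid, at both times. At rest St6gal1 was at 347, 388 and 329 normalized CPM in the Cre-only samples against 196, 176 and 208, which did not overlap (1.84-fold lower, log2 -0.88, SE 0.135, adjusted p = 0.00643). At 3 h it was at 98, 108 and 94.9 against 44.4, 67.3 and 56.3 (1.79-fold lower, log2 -0.84, SE 0.137, adjusted p = 0.00541), and activation lowered it 3.54-fold in Cre-only cells. Antisense genes overlap exons of St6gal1, St3gal6 and Man2a1, and the strand setting of the counting is not given in the sources used here.

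The endolysosomal damage response list held 16 genes, 3 of which are the galectins Lgals3, Lgals8 and Lgals9, and 15 were tested. On activation 4 rose and 5 fell in Cre-only cells and 4 rose and 6 fell in Runx1 c-k/o cells, against the same shares of all tested genes (38.6% and 36.4%, 37.7% and 36.6%), and these counts include the galectins. Tfeb, a transcription factor for lysosomal genes, fell 6.57-fold in Cre-only cells (109 ± 2.32 to 16.6 ± 1.37 normalized CPM, adjusted p = 2.08e-08), Tax1bp1, an autophagy receptor, fell 1.65-fold (adjusted p = 2.25e-06) and Optn, another, rose 1.85-fold (adjusted p = 5.95e-05). Between genotypes 0 of the 15 were called at rest by either tool (1 with an unadjusted p under 0.05 in edgeR), and at 3 h the 1 call was Lgals9 itself. Of all tested genes, edgeR called 0.731% higher and 0.761% lower at rest, and 1.47% and 1.3% at 3 h. As an interaction, edgeR called 0 genes in each of the partner, N-glycan, sialyltransferase and endolysosomal lists, where 6, 1, 1 and 2 had an unadjusted p under 0.05 and DESeq2 called 2, 0, 0 and 1. The smallest adjusted p among them in edgeR was 0.117, for Slc2a1 (log2 0.67, SE 0.129).

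Over the 12 samples the genes with the most similar pattern to each galectin were found by the Pearson correlation of log2 normalized CPM, as a description without a test. The samples share 4 groups, so that much of each value reflects activation. For Lgals9 these were Ddx25 (r = 0.994), Ehd4 (r = 0.992) and Il18 (r = 0.992), and Il18, a cytokine of the IL-1 family, was at Cre-only group means of 9.92 at rest and 0.293 at 3 h, and at 18.5 and 1.12 with the deletion. For Lgals3 they were Tmbim1 (r = 0.99), Smyd2 (r = 0.989) and Abcb8 (r = 0.988). Lgals1 was most like Actr1a (r = 0.977), Gm20419 (r = 0.973) and S100a13 (r = 0.967), and Lgals8 most like Sfrs18 (r = 0.978), Sh2b1 (r = 0.964) and Tmem144 (r = 0.96). Among the galectins themselves r was 0.765 for Lgals1 and Lgals9 and -0.863 for Lgals3 and Lgals9.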

How the data were processed

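RNA-seq libraries of 12 samples (4 groups of 3) were made by the authors from splenic B cells with ERCC spike-in RNA, poly(A) selection and the TruSeq Stranded kit, and sequenced as paired ends. Per the submitters' processing notes, CASAVA 1.8.4 and TopHat2 2.0.11 were used with the mm9 genome, and the authors deposited raw read counts per gene from featureCounts. Settings for strand and for reads with several alignments are not given in the sources used here. The authors' own test was DESeq2 with RUV-seq factors.

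Counts were tested with edgeR 4.0.16 in R 4.3.3. Genes were filtered with filterByExpr, libraries scaled by TMM, and a robust quasi-likelihood model with 1 term per group was fitted to all 12 samples. P-values were adjusted by Benjamini-Hochberg over all 13538 tested genes with a threshold of 0.05. RPKM divides normalized CPM by the exon length in the GENCODE annotation of mm9. Log2 CPM used a prior count of 2. DESeq2 1.42.0, other filters and scalings, 1 RUVs factor, a replicate block, only the groups compared and each sample left out were the alternatives. Models were tested on simulated data. Named genes were the 4 galectins, every other galectin gene in the table, Lgals3bp and Runx1, up to 4 genes per list with the smallest adjusted p, and the 3 genes most like each galectin. The galectins and lists were chosen with earlier results of these data known. The paper describes 3 biological replicates per cell type, and the labels give replicates a number only. The p-values measure the spread between these samples, which can include technical spread as well. Same-numbered resting and 3-h samples deviated together in Cre-only cells (r across genes 0.275, 0.176 and 0.144) but not in Runx1 c-k/o cells (-0.254, -0.264 and 0.254). Differently numbered Runx1 c-k/o pairs ran from -0.428 (resting 3 with 3-h 1) to 0.477 (resting 2 with 3-h 1). Whether any resting and 3-h samples share a mouse is not stated.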

Additional observations from a re-analysis of the deposited data

How the results depend on the processing

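Of 312 values of the 20 galectin results under other settings, 287 kept their direction and their side of the threshold. The fall of Lgals9 and of Lgals1 and the rise of Lgals3 on activation kept their direction under every alternative, as did the higher Lgals9 of Runx1 c-k/o cells at 3 h (log2 0.65 to 0.83, adjusted p at most 0.036), and the only call lost among them was that of Lgals3 in Cre-only cells with DESeq2 and 1 RUVs factor (log2 1.06, adjusted p = 0.0539). Lgals8 in Cre-only cells on activation passed the threshold with at least 10 counts in every sample (log2 -0.34), DESeq2 size factors (-0.27), DESeq2's Wald test (-0.26) and only the groups compared (-0.25). In Runx1 c-k/o cells its call was lost with 1 RUVs factor in DESeq2 (-0.19) and in edgeR (-0.12). The Lgals9 interaction passed with DESeq2's Wald test (0.55) and with DESeq2 and 1 RUVs factor (0.56).

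The sign of 3 differences that were not called changed. For Lgals1 at rest it was -0.0144 with at least 10 counts in every sample, -0.0745 with 1 RUVs factor in DESeq2 and -0.0691 in edgeR, -0.0154 with only the groups compared, and -0.0915 to 0.0984 with each sample left out. For Lgals3 at rest it ran from -0.32 to 0.45 with each sample left out. The Lgals3 interaction was 0.0544 with at least 10 counts in every sample, 0.0355 with DESeq2 size factors, 0.0356 with DESeq2's Wald test, 0.0690 with DESeq2 and 1 RUVs factor, and -0.26 to 0.51 with each sample left out. The causes were not tested.

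A replicate block within each genotype gave 0.0968 for the Lgals3 interaction and changed no galectin's call, and it took the count of interaction calls over all genes from 11 to 4. With DESeq2's Wald test, DESeq2 and 1 RUVs factor, and edgeR and 1 RUVs factor that count was 79, 252 and 142, the count at rest 378, 611 and 524 in place of 202, and that at 3 h 707, 1235 and 1036 in place of 375, which was 158 with only the groups compared. Leaving out each sample gave 4 to 31 interaction calls, 81 to 140 at rest and 180 to 617 at 3 h, the highest after leaving out Runx1 c-k/o 3-h replicate 3. Lgals1, with 80 to 248 counts per sample, is the least precisely counted of the 4, and a galectin that missed the threshold is not shown to be unchanged.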
